A study of Mus musculus with 9 samples.

Results

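The imprinted growth genes Igf2, H19, Dlk1, Meg3, Rian, Mest, Peg3, Plagl1 and Grb10, were followed in mouse gastrocnemius, a calf muscle of mainly fast fibres. They are 9 of the 24062 gene symbols in the count table, and all 9 were among the 12989 genes with enough counts to be tested. Igf2 was selected on its values in these same libraries, where it was higher in hetX753 than in WT, and the other 8 were chosen as its partners in the network of imprinted genes. Transcripts were sequenced from whole muscle in 3 libraries of each of 3 genotypes. The hetX753 mice (BubR1+/X753) and the hetL1002P mice (BubR1+/L1002P) each carried a single altered copy of Bub1b, the gene for the spindle checkpoint protein BubR1, and WT mice carried none. All mice were 3 months old and on a mixed 129Sve/C57BL/6 background. Whether the 3 libraries of a genotype represent 3 animals is not stated in the labels, and the p-values therefore reflect variation among these samples that could be technical.

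An imprinted gene is transcribed mainly from the copy inherited from the mother or mainly from that inherited from the father, and the choice is held by DNA methylation at control regions shared by whole clusters. Paternally expressed members such as Igf2, Dlk1, Mest, Peg3 and Plagl1 and maternally expressed members such as H19, Meg3, Rian and, in most tissues, Grb10 act on fetal and postnatal growth. In muscle, Igf2 is a growth factor of myoblast differentiation, and most of the network is transcribed strongly before birth and falls to low levels in the adult. Reads of both parental copies are counted together here, so the allele of origin was not measured.

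The sequences printed next come from these loci, and the values below, counted per gene, do not tell which start site was used. Igf2 and H19 lie in the same cluster on chromosome 7, Igf2 at chr7:142650766-142666816 and H19 at chr7:142575529-142578143, both on the minus strand (GRCm38). RefSeq (GRCm38.p6) gives Igf2 4 start sites, and the window of 300 bases with the most CpG dinucleotides, 24 of them, is chr7:142658755-142659054, minus strand, from 250 bases before to 50 after the start, with each CG in capitals. The Peg3 window, chr7:6730370-6730669, minus strand, is shown because it was the only one of 15 windows of 8 members to hold GGGGCCCC, a motif described for the Plagl1 protein and the same on both strands, in capitals 201 bases before the start. Of 32851 windows in the same table, 1.08% hold that motif, and the match says nothing about binding. The H19 exon also holds the hairpin of miR-675, and an Igf2 intron that of miR-483. Their mature sequences are given with the seed, bases 2 to 8, in capitals, although the assay counted gene transcripts and did not measure mature miRNAs.
Igf2 promoter window: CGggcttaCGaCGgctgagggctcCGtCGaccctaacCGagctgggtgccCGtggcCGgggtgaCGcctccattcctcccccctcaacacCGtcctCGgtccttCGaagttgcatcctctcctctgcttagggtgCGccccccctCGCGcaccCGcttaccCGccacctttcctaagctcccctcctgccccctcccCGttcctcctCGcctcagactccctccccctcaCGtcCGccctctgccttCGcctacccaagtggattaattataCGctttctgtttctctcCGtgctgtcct
Peg3 promoter window: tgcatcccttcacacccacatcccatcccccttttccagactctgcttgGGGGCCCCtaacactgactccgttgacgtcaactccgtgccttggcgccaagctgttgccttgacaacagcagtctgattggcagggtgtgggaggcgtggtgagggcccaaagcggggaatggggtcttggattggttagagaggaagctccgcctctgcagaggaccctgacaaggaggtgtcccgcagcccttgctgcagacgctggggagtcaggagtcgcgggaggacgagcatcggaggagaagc
miR-675-5p (H19): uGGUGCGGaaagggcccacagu
miR-675-3p (H19): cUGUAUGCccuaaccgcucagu
miR-483-5p (Igf2): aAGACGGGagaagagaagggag
miR-483-3p (Igf2): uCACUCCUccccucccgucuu

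Library totals lay between 19768149 and 33977252 counts. Bub1b had 5 to 8 counts per library in hetX753, 2 to 10 in hetL1002P and 11 to 21 in WT. Markers of muscle fibres such as Acta1, Ckm and Myh4 were summed in CPM (counts per 1000000 counted reads, on totals scaled by TMM). Their sums were 206215 to 222807 CPM in hetX753, 217264 to 248091 CPM in hetL1002P and 246649 to 277708 CPM in WT. Every hetX753 sum was thus below every WT sum, and the part of this in the CPM of other genes was not tested. Of 5 erythroid markers, the 4 globin genes were at 0 in every library, while Alas2 was at 4.06 to 11.4 CPM. The part of blood RNA was not tested. Along the first principal component of all tested genes (39.7% of the variance), hetL1002P 3 had a score of -32.5 and WT 3 of -47.5, apart from the remaining libraries at -9.52 to 28.8. Some results for the members are also given without these libraries. Marker lists and values of single other genes are given with all libraries only. In whole tissue, fewer cells of a type and less RNA per cell cannot be told apart.

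The 9 genes spanned a wide range of levels. Scaled by exon length, as CPM per kilobase of exon (RPKM), H19 averaged 147 ± 39.5 over the 9 libraries (SD). Igf2 followed at 3.13 ± 0.867 RPKM and Grb10 at 2.88 ± 0.352 RPKM, and in WT alone this pair stood in the other order, with Igf2 at 2.34 ± 0.12 RPKM and Grb10 at 2.95 ± 0.410 RPKM (SD, n = 3). The other 6 were below 1 RPKM, at 0.642 ± 0.373 for Mest, 0.584 ± 0.129 for Meg3, 0.421 ± 0.104 for Rian, 0.305 ± 0.177 for Peg3, 0.255 ± 0.0733 for Dlk1 and 0.0986 ± 0.0594 for Plagl1. Of neighbours in this order, Igf2 and Grb10, Mest and Meg3, Rian and Peg3, and Peg3 and Dlk1 differed by less than the larger SD of the pair, and the other neighbours by more. In log2 CPM, H19, a long noncoding RNA, stood at percentile 97.9 of tested genes, and the next member, Grb10, at 69.9.

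**Figure D1:**
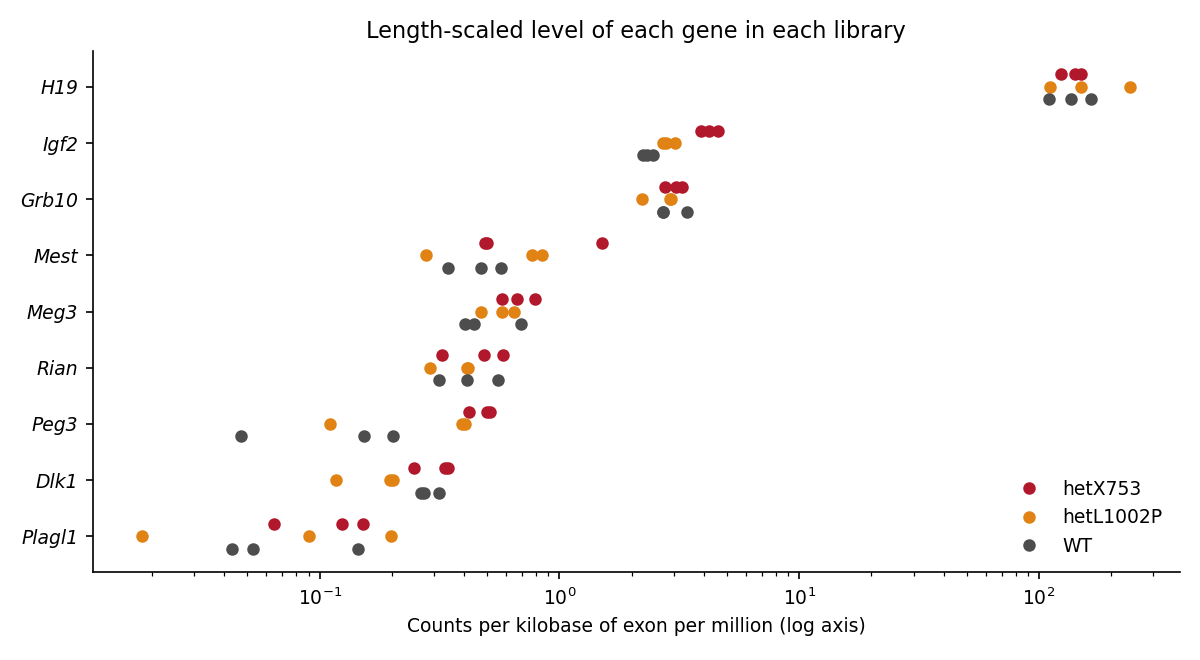
Length-scaled level of each gene (CPM per kilobase of exon, log axis) in every library, with a row of points each for hetX753, hetL1002P and WT from top to bottom. H19 averaged 147 and Plagl1 0.0986, and for Igf2 and Peg3 all 3 hetX753 points lie above every point of the other genotypes.

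Igf2 encodes a secreted growth factor that signals through the Igf1 and insulin receptors. It stood at 22.2, 26.3 and 24.0 CPM in hetX753, at 15.5, 17.4 and 15.9 CPM in hetL1002P and at 12.8, 13.3 and 14.1 CPM in WT. The genotypes did not overlap, with hetX753 highest, hetL1002P between and WT lowest. The contrast that chose the gene, hetX753 against WT, gave a log2 fold change of 0.85 (SE 0.11), 1.80-fold. For hetL1002P against WT it was 0.28 (SE 0.11), 1.22-fold, with adjusted p = 0.579 (unadjusted p = 0.0315, edgeR quasi-likelihood test, Benjamini-Hochberg), which did not pass the threshold of 0.05. The WT libraries of that test are those of the contrast that chose Igf2. The difference of hetX753 from hetL1002P, also a description, was 0.57 (SE 0.11) on the log2 scale. Igf2 was the only member with all 6 carrier libraries above all 3 WT libraries, as were 379 of the 12989 tested genes (2.92%). The hetX753 and WT parts of that separation are the values that chose Igf2. Igf2 was also the steadiest member within genotypes, with an SD of 0.09 in log2 CPM, at percentile 6.90 of tested genes. This spread, too, comes in part from the libraries that chose the gene. Of its exonic bases, 62.8% also belong to Gm49394, an annotated gene on the same strand with no row in the table. How reads shared by both were counted is not given in the sources used here, so the Igf2 level, and its place beside Grb10, is uncertain.

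H19 is transcribed from the same cluster and shares enhancers with Igf2 on the other parental copy. It stood at 370, 348 and 303 CPM in hetX753, at 368, 272 and 591 CPM in hetL1002P and at 270, 334 and 403 CPM in WT, from 6463 to 12462 counts per library. The genotypes overlapped, and the highest libraries of hetL1002P and of WT were those that stood apart on the first principal component. Log2 fold changes were 0.02 (SE 0.25) for hetX753 against WT and 0.29 (SE 0.25) for hetL1002P against WT (adjusted p = 0.658, edgeR). Without both of those libraries hetX753 against hetL1002P was 0.086, and with them -0.27 (SE 0.25, adjusted p = 0.856). Over the 9 libraries, log2 CPM of Igf2 and H19 had r = -0.0448 (exact permutation p = 0.916) and rho = 0.117 (p = 0.776), with r = 0.162 without the 2 libraries farthest from the Igf2 median and 0.333 without WT 3 and hetL1002P 3.

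**Figure D2:**
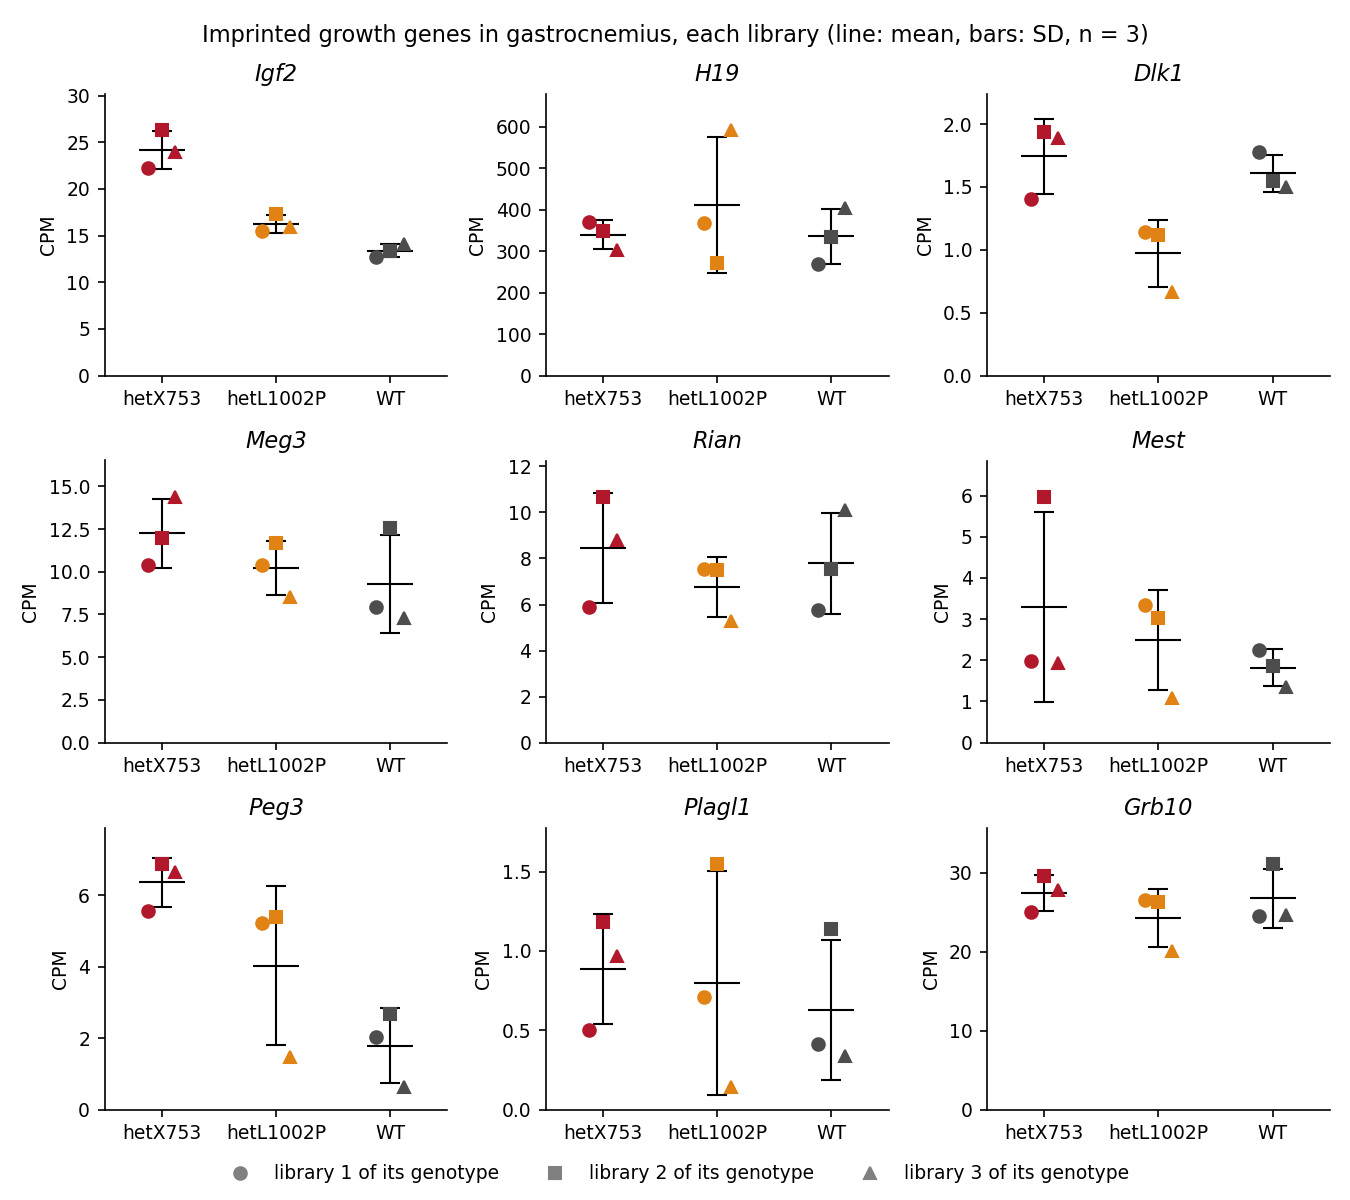
CPM of each of the 9 genes in hetX753, hetL1002P and WT, with a point per library, its replicate number as the symbol, and the mean and SD of 3 libraries as line and bars; each panel has its own axis from 0. The Igf2 points form separate steps by genotype, at 22.2 CPM or more in hetX753 and at 14.1 CPM or less in WT, whereas H19, Meg3, Rian, Mest, Plagl1 and Grb10 overlap in all comparisons.

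Dlk1, Meg3 and Rian lie in order along 1 imprinted cluster on chromosome 12, at chr12:109452823-109463336, chr12:109541001-109571726 and chr12:109603940-109661716, all on the plus strand. Dlk1 encodes a transmembrane protein with epidermal growth factor-like repeats, known from preadipocytes and from developing muscle. It had 1.4, 1.93 and 1.89 CPM in hetX753, 1.14, 1.11 and 0.664 CPM in hetL1002P and 1.78, 1.55 and 1.5 CPM in WT. All 3 hetL1002P libraries lay below all libraries of both other genotypes. On the log2 scale Dlk1 was at -0.71 (SE 0.27) in hetL1002P against WT (adjusted p = 0.579, unadjusted p = 0.0245) and 0.82 (SE 0.27) in hetX753 against hetL1002P (adjusted p = 0.427, unadjusted p = 0.0121, edgeR), so neither passed the threshold. Without WT 3 and hetL1002P 3 these were -0.57 and 0.62. Against WT, hetX753 was at 0.10 (SE 0.26). The gene rests on 14 to 60 counts per library. Of 8 adipocyte markers, all 8 had a log2 fold change below 0 in hetL1002P against WT (median -0.59) and 7 above 0 in hetX753 against hetL1002P (median 0.74), and their summed level was 246 to 513 CPM in hetX753, 203 to 246 CPM in hetL1002P and 306 to 495 CPM in WT, with none at 0. Of 12 markers of fibro-adipogenic progenitors, 5 were above 0 in hetL1002P against WT (median -0.08) and 2 in hetX753 against hetL1002P (median -0.21). The part of adipocyte or progenitor RNA in the Dlk1 values was not tested.

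Meg3 and Rian are long noncoding RNAs of the maternal copy, and Rian is the host of many small nucleolar RNAs. Meg3 had 10.4, 12.0 and 14.4 CPM in hetX753, 10.4, 11.7 and 8.54 CPM in hetL1002P and 7.93, 12.5 and 7.30 CPM in WT. Rian had 5.89, 10.7 and 8.82 CPM in hetX753, 7.55, 7.48 and 5.27 CPM in hetL1002P and 5.74, 7.54 and 10.1 CPM in WT. Both overlapped across all 3 genotypes. Meg3 had a log2 fold change of 0.41 (SE 0.22) and Rian of 0.12 (SE 0.26) in hetX753 against WT. For hetL1002P it was 0.15 (SE 0.22) for Meg3 and -0.19 (SE 0.26) for Rian, with adjusted p = 0.791 and 0.773 (edgeR). Between the carriers Meg3 was at 0.26 (SE 0.22) and Rian at 0.32 (SE 0.26), with adjusted p = 0.843 for each. Over the 9 libraries the pair had r = 0.310 (exact permutation p = 0.408) and rho = 0.367 (p = 0.336), with r = 0.769 without the 2 libraries farthest from the Meg3 median and 0.719 without WT 3 and hetL1002P 3.

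Peg3, a paternally expressed zinc finger protein known from muscle stem cells and from the response to tumour necrosis factor, had the largest fold change of the 9 genes in hetX753 and in hetL1002P against WT. It stood at 5.57, 6.87 and 6.65 CPM in hetX753, at 5.23, 5.39 and 1.47 CPM in hetL1002P and at 2.04, 2.68 and 0.628 CPM in WT, from 13 to 174 counts per library. All 3 hetX753 libraries lay above all libraries of both other genotypes, while hetL1002P 3 fell among the WT libraries. As a description, hetX753 differed from WT by 1.82 (SE 0.49) on the log2 scale, 3.54-fold. The hetL1002P difference from WT was 1.18 (SE 0.50), 2.27-fold, with adjusted p = 0.579 (unadjusted p = 0.0376, edgeR). With same-numbered libraries as a replicate block in a fit of these 2 genotypes alone, it was 1.19 with adjusted p = 0.0297, the only call of a member in that comparison, where the same fit called 5.01% of all genes. Without WT 3 and hetL1002P 3 it was 1.19 (SE 0.21), with adjusted p = 0.118, and in hetX753 against WT 1.45 (SE 0.19). Over the alternatives, adjusted p for hetL1002P against WT ran from 0.0297 to 0.999. For hetX753 against hetL1002P the value was 0.64 (SE 0.46), with adjusted p = 0.80, and 0.26 without both libraries.

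Markers of smooth muscle and pericytes lay on the same side as Igf2 and Peg3 in hetX753. All 8 had a log2 fold change above 0 in hetX753 against WT (median 0.46, none past the threshold), and their summed level was 385 to 516 CPM in hetX753, 303 to 447 CPM in hetL1002P and 246 to 348 CPM in WT, with none at 0. All 12 markers of fibro-adipogenic progenitors were below 0 in the same comparison (median -0.29), with summed levels of 1687 to 1890 CPM in hetX753, 1385 to 2732 CPM in hetL1002P and 1907 to 2569 CPM in WT. Of macrophage markers 7 of 7, of tendon markers 6 of 7 and of muscle fibre markers 8 of 10 were also below 0 there, with medians of -0.32, -0.52 and -0.32. In the same comparison 6 of 8 adipocyte markers (median 0.17), 4 of 8 endothelial markers (median -0.03) and 3 of 7 Schwann cell markers (median -0.01) were above 0. The only lymphocyte and erythroid markers tested, Cd3e and Alas2, were at 2.80 and 0.08. Summed levels of macrophage markers were 49.0 to 53.4 CPM in hetX753, 42.6 to 87.5 CPM in hetL1002P and 45.6 to 83.4 CPM in WT, and those of tendon markers 117 to 230 CPM in hetX753, 152 to 279 CPM in hetL1002P and 213 to 220 CPM in WT. Summed satellite cell markers were at 33.4 to 41.4 CPM in hetX753, 36.0 to 45.1 CPM in hetL1002P and 38.2 to 48.4 CPM in WT. Of 7 satellite cell markers tested, 4 were above 0 in hetX753 against WT (median 0.12) and 5 in hetL1002P against WT (median 0.08). The part of these cells in the Igf2 and Peg3 values was not tested. Zim1, a maternally expressed zinc finger gene next to Peg3, had 0.611, 0.868 and 1.20 CPM in hetX753, 0.551, 0.935 and 0.142 CPM in hetL1002P and 0.266, 0.103 and 0.0967 CPM in WT, on 121 counts in all. Its log2 fold change was 2.34 (SE 0.64) in hetX753 against WT (adjusted p = 0.124) and 1.69 (SE 0.66) in hetL1002P against WT (adjusted p = 0.579, edgeR), neither past the threshold.

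Mest, which encodes an enzyme of the alpha/beta hydrolase family, had 1.98, 5.96 and 1.94 CPM in hetX753, 3.34, 3.02 and 1.09 CPM in hetL1002P and 2.25, 1.86 and 1.35 CPM in WT. A single library, hetX753 2, held the highest value, and that library also had the highest summed adipocyte markers, 513 CPM. WT 2 followed in adipocyte markers at 495 CPM, with Mest at 1.86 CPM. The part of adipocyte RNA in the Mest values was not tested. For hetX753 against WT the Mest log2 fold change was 0.84 (SE 0.50), or 0.088 without hetX753 2. Relative to WT, hetL1002P was at 0.45 (SE 0.50, adjusted p = 0.729), and between the carriers 0.39 (SE 0.48, adjusted p = 0.906), or -0.35 without hetX753 2 (edgeR). Without WT 3 and hetL1002P 3 the Mest difference between the carriers was 0.052. Copg2, on the other strand, covers 23.1% of the exonic bases of Mest, and the library kit does not mark strand, so reads there cannot be told apart.

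Plagl1, a zinc finger transcription factor that acts on other imprinted genes in the mouse, was the scarcest member, with 3 to 43 counts per library. It had 0.503, 1.18 and 0.969 CPM in hetX753, 0.708, 1.55 and 0.142 CPM in hetL1002P and 0.414, 1.14 and 0.338 CPM in WT. Library 2 was highest in each genotype. Its log2 fold change was 0.53 (SE 0.69) in hetX753 against WT, 0.44 (SE 0.69, adjusted p = 0.805) in hetL1002P against WT and 0.09 (SE 0.66, adjusted p = 0.986) between the carriers (edgeR). Single libraries moved these values: without WT 2 they were 1.2 and 1.1 against WT in hetX753 and hetL1002P, and without hetL1002P 2 they were -0.47 in hetL1002P against WT and 0.995 between the carriers. Grb10, an adaptor that binds and restrains the insulin and Igf1 receptors, had 25.0, 29.6 and 27.8 CPM in hetX753, 26.5, 26.3 and 20.1 CPM in hetL1002P and 24.6, 31.1 and 24.7 CPM in WT. The genotypes overlapped, with a log2 fold change of 0.04 (SE 0.15) in hetX753 against WT, -0.14 (SE 0.15, adjusted p = 0.713) in hetL1002P against WT and 0.18 (SE 0.15, adjusted p = 0.84) between the carriers (edgeR).

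**Figure D3:**
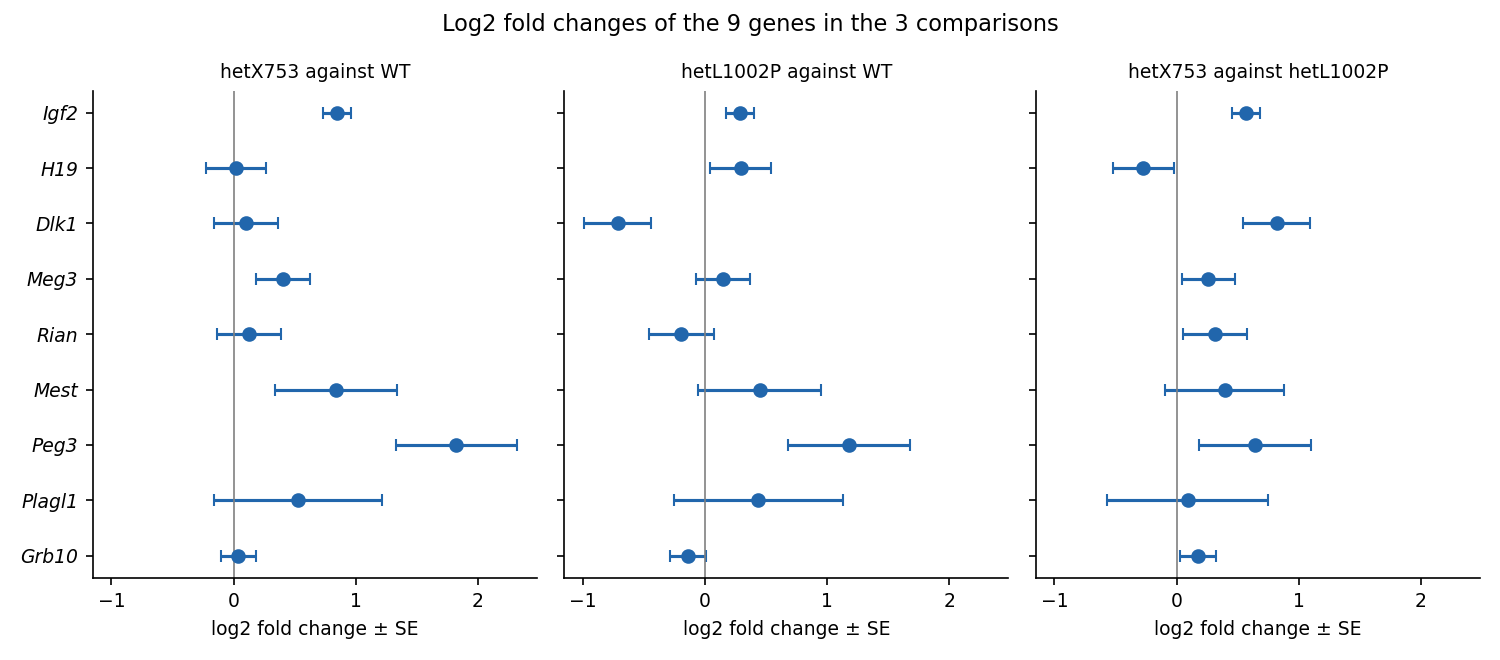
Log2 fold change of each gene (point) with its standard error (bar) in hetX753 against WT, hetL1002P against WT and hetX753 against hetL1002P, on a shared axis. All 9 points lie above 0 in hetX753 against WT (H19, Rian and Grb10 not without some single libraries), from 0.02 for H19 to 1.82 for Peg3, and Dlk1 lies lowest in hetL1002P against WT at -0.71.

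Set against WT, hetX753 had all 9 members with a log2 fold change above 0, and a median of 0.41 beside 0.00 over all tested genes, although H19, Rian and Grb10 were below 0 without some single libraries. This comparison chose Igf2, so a call of Igf2 here is a description and no test. The members called were 1, Igf2, beside 0.508% of all tested genes. The count was 0 without WT 1, WT 2, WT 3, hetX753 2 or hetX753 3. With DESeq2 it was 2, Igf2 and Peg3, beside 5.63% of all genes. Without overlap between genotypes were 2 members, Igf2 and Peg3, beside 32.5% of all genes. For hetL1002P against WT, 6 of 9 were above 0 (median 0.28 beside 0.01 over all genes). Igf2, Dlk1 and Peg3 had an unadjusted p under 0.05 (edgeR), as did 7.96% of all genes. For Igf2 the WT libraries are those of the contrast that chose it. No member was called by edgeR without a block, beside 0% of all genes, by DESeq2, beside 0.0385%, or by limma-voom, beside 0.0154%. The replicate block on these 2 genotypes called 1, Peg3, beside 5.01% of all genes. Without overlap were 2 members, Igf2 upward and Dlk1 downward, beside 9.44% of all genes. In hetX753 against hetL1002P, 8 of 9 were above 0 (median 0.32 beside -0.01 over all genes). None was called by edgeR, beside 0.115% of all genes, with 2, Igf2 and Dlk1, at an unadjusted p under 0.05, beside 8.24% of all genes. DESeq2 called 1, Igf2, beside 1.06%, and the hetX753 libraries that chose Igf2 are part of this comparison. Igf2, Dlk1 and Peg3 did not overlap there, beside 14.4% of all genes. Each pair of comparisons shares the 3 libraries of a genotype.

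Over the 9 libraries, 28 of 36 pairs of members had a positive r in log2 CPM and 8 a negative one (median r 0.45). The 8 negative pairs were those with H19, a pattern that changed with the libraries left out. Without hetL1002P 3 and WT 3, 6 of the 8 H19 pairs had a positive r, from 0.181 with Meg3 to 0.396 with Peg3. Then 4 of all 36 pairs had a negative r, of which 2 lacked H19 (median r 0.33). Without hetL1002P 3 and WT 1, farthest from the H19 median, H19 had r = -0.851 with Plagl1, -0.728 with Meg3 and -0.543 with Peg3. Its r was then -0.314 with Grb10, -0.22 with Mest, 0.0915 with Dlk1 and 0.131 with Rian. By rho over all 9 libraries, H19 was already positive with 2 members, Igf2 and Rian. None passed Benjamini-Hochberg adjustment over the 36 pairs by r or rho. The highest was Plagl1 with Grb10, at r = 0.872 (exact permutation p = 0.00215, adjusted p = 0.0774), rho = 0.8 (p = 0.0138), r = 0.947 without the 2 libraries farthest from the Plagl1 median and r = 0.676 without WT 3 and hetL1002P 3. Meg3 with Peg3 had r = 0.819 (exact permutation p = 0.00697, adjusted p = 0.125), rho = 0.733 (p = 0.0311), r = 0.666 without the 2 farthest and r = 0.605 without WT 3 and hetL1002P 3. Igf2 with Peg3 had r = 0.705 (exact permutation p = 0.0343, adjusted p = 0.126), rho = 0.817 (p = 0.0108), r = 0.568 without the 2 farthest and r = 0.879 without WT 3 and hetL1002P 3, while deviations from the genotype means gave r = -0.0683. Within genotypes, the SD of log2 CPM was 0.75 for Mest, 0.85 for Peg3 and 1.02 for Plagl1. These were at percentiles 97.1, 98.2 and 99.3 of tested genes, beside 0.19 for Grb10, at percentile 35.2. In level, Mest, Peg3 and Plagl1 stood at percentiles 21.4, 26.9 and 7.35 and Grb10 at 69.9, so genes of unlike level are compared. The part of low counts or single libraries in these SDs was not tested.

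**Figure D4:**
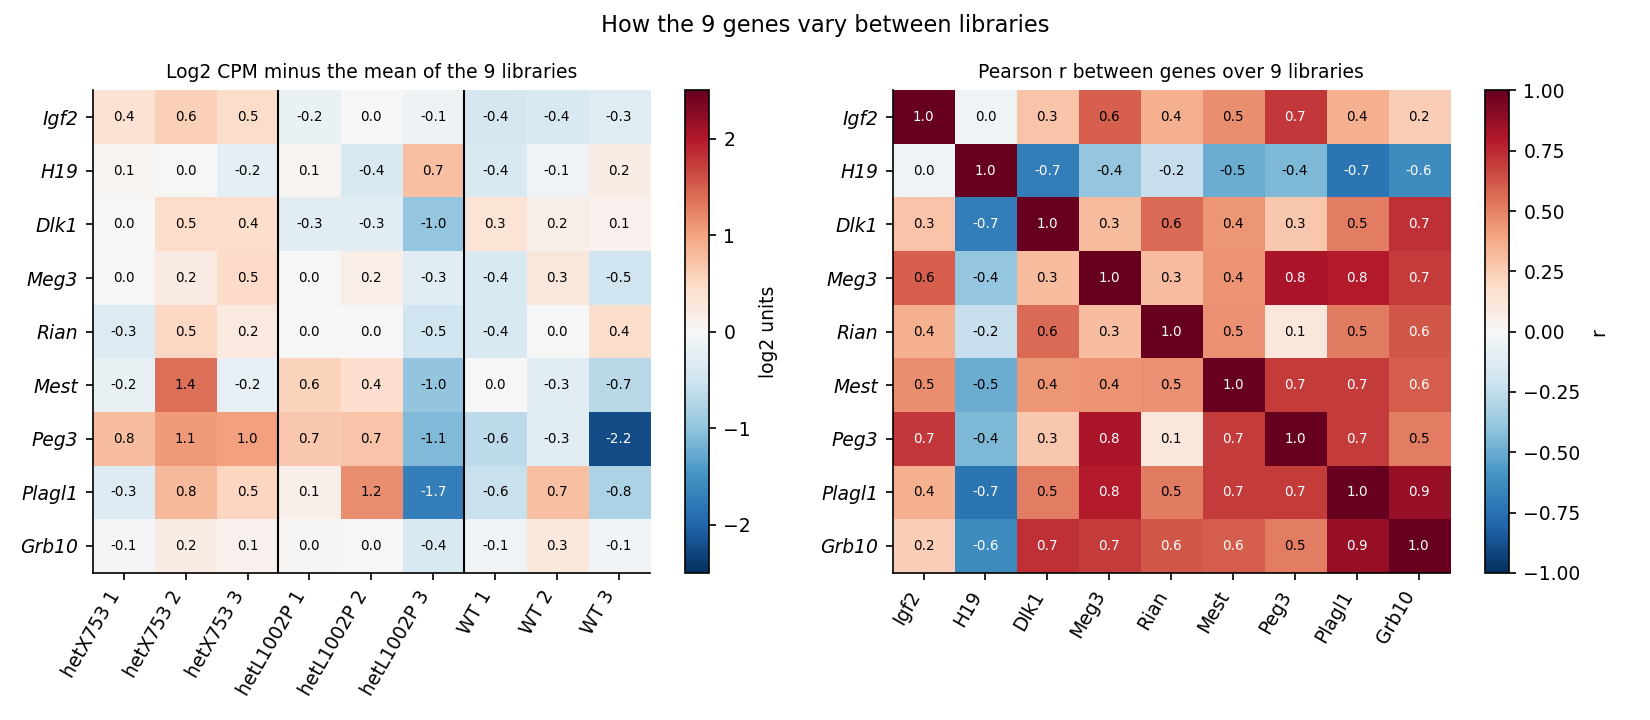
Left, log2 CPM of each gene in each library minus the mean of the 9 libraries, with lines between hetX753, hetL1002P and WT; right, Pearson r between each pair of genes over the 9 libraries. The 8 negative r are in the H19 row, and 6 of them are positive without WT 3 and hetL1002P 3; the lowest cell on the left is Peg3 in WT 3.

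The genes whose log2 CPM most resembled each member over the 9 libraries were taken from 11106 candidates (11107 for Plagl1) averaging at least 1 CPM. For Igf2 they included Tdrd3 and Pde4d, with r of 0.970 and 0.969, and 0.643 and 0.546 within genotypes. For Peg3 they were Cap1, Shc4 and Dip2c, with r of 0.992, 0.992 and 0.982, and 0.987, 0.987 and 0.973 within genotypes. For H19 the nearest was Rpn1 (0.936), for Dlk1 Lzts3 (0.949), for Meg3 Tob2 (0.963), for Rian Gnptg (0.935), for Mest Ptbp3 (0.943), for Plagl1 B3gnt9 (0.973) and for Grb10 Apcdd1 (0.956). These values describe the 9 libraries and were not tested.

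Among other genes of the Igf2 axis, none of 15 tested passed the threshold in any comparison. Against WT, 7 were above 0 in hetX753, and the median was -0.0036. The binding protein Igfbp6 had the smallest p, with a log2 fold change of -0.59 (SE 0.16, adjusted p = 0.121), and the receptor gene Igf1r was at 0.43 (SE 0.17, adjusted p = 0.204). In the other carrier, hetL1002P, 10 were above 0 against WT (median 0.21). Igf2r, the imprinted receptor that clears Igf2, was at 0.43 (SE 0.15), the insulin receptor gene Insr at 0.36 (SE 0.15) and Igf1 at 0.45 (SE 0.19), each with adjusted p = 0.579. Between the carriers 2 of 15 were above 0 (median -0.27), and Igfbp5 was at -0.75 (SE 0.27, adjusted p = 0.462, edgeR).

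Other genes listed as imprinted had medians near those of all genes, and none was called in any comparison. The lists were not limited to genes imprinted in muscle, and the allele of origin was not measured. Of 13 tested genes listed as paternally expressed, 6 were above 0 in hetX753 against WT and 7 in hetL1002P against WT. Nnat, a small membrane proteolipid, had 21.0, 49.7 and 10.8 CPM in hetX753, 9.56, 3.92 and 2.89 CPM in hetL1002P and 6.84, 11.6 and 9.96 CPM in WT. Its log2 fold change was 2.31 (SE 0.56) in hetX753 against hetL1002P (adjusted p = 0.224) and 1.53 (SE 0.54) in hetX753 against WT (adjusted p = 0.174, edgeR). Of 25 tested genes listed as maternally expressed in some tissue, 10 were above 0 in hetX753 against WT and 11 in hetL1002P against WT. Cdkn1c, a cyclin-dependent kinase inhibitor in the cluster next to that of Igf2, averaged 31.0 ± 4.8 CPM in hetX753, 21.6 ± 3.15 CPM in hetL1002P and 22.2 ± 3.00 CPM in WT (SD, n = 3 each), with adjusted p = 0.159 against WT and 0.375 against hetL1002P (edgeR). Ube3a, a ubiquitin ligase, was at 0.80 (SE 0.26, adjusted p = 0.15) in hetX753 and 0.79 (SE 0.26, adjusted p = 0.579) in hetL1002P against WT.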

How the data were processed

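RNA from gastrocnemius was prepared with Illumina's TruSeq RNA Library Prep v2, a kit that does not mark strand, per the labels' protocols. The authors deposited whole-number read counts per gene symbol, without normalization. Per the submitters' processing notes, the tools were featureCounts 1.4.6, Subread, Bowtie2 2.2.6 and TopHat2 2.0.14 and the build mm10. Roles, annotation and strand setting: not given in the sources used here. Genotypes came from the titles.

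Counts were fitted with edgeR 4.0.16 in R 4.3.3 over all 9 libraries: filterByExpr on genotype, TMM scaling, robust quasi-likelihood, a genotype term alone with 6 residual degrees of freedom, Benjamini-Hochberg adjustment over 12989 genes, called under 0.05. The fit was tested on simulated data. SE is the log2 fold change divided by the square root of F; a positive value means higher in the genotype named first. CPM uses TMM-scaled totals, log2 CPM a prior count of 2, and RPKM the exon union of GENCODE M21 (GRCm38).

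The members and lists were chosen with earlier results of these data known, so hetX753 against WT is a description for the members. Named were all members, from each list up to 3 genes with the smallest p in each comparison (the text gives part of these), and for each member the 3 most alike genes (the text gives part of these, and 1 is not reported here). Deviations of same-numbered libraries correlated in hetL1002P and WT (r = 0.285, 0.36 and 0.516), above the bound of 0.1 for pairing. Unlike-numbered libraries of these genotypes ran from -0.454 to 0.198. Deviations from a genotype mean are tied to each other, so these r are not independent. The labels do not say what the numbers mark. With hetX753 the r of same-numbered libraries ran from -0.279 to 0.164, which does not meet that bound. Alternatives were DESeq2 1.42.0, voom in limma 3.58.1, other scalings and filters, a replicate block, the 2 genotypes compared alone, and libraries left out.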

Additional observations from a re-analysis of the deposited data

How the results depend on the processing

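Over 19 alternatives per comparison, single members kept their direction and side of the threshold in 482 of 513 values, gained a call in 7, lost it in 5 and turned direction in 19. Genes called in hetX753 against WT, 66, became 660 with DESeq2, 31 with library totals alone, 254 with the 2 genotypes alone, 106 with a replicate block on those 2, 340 without both WT 3 and hetL1002P 3, and 0 (without WT 1) to 669 (without hetL1002P 3) without 1 library. Members called there, 1, became 2 with DESeq2, the 2 genotypes alone, the replicate block on those 2 and without both libraries. Without 1 library they were 0 to 2, and the median log2 fold change of the members, 0.41, ran from 0.088 to 0.68. Since this comparison chose Igf2, the counts of members called in it are a description. In hetL1002P against WT, 0 genes called (1034 at an unadjusted p under 0.05) became 5 with DESeq2, 2 with limma-voom, 2 with no low-count filter, 635 with the replicate block on the 2 genotypes and 2 without both libraries, and 0 to 1 without 1 library. Members called, 0, became 1 (Peg3) with that replicate block and stayed at 0 without any 1 library, and the median, 0.28, ran from 0.029 to 0.29. In hetX753 against hetL1002P, 15 genes became 138 with DESeq2, 38 with no low-count filter, 31 with the replicate block on all 9 libraries, 5 with the 2 genotypes alone, 2 with the replicate block on those, 95 without both libraries and 0 to 19 without 1 library. Members called, 0, became 1 (Igf2) with DESeq2 and stayed at 0 without any 1 library, and the median, 0.32, ran from 0.13 to 0.56. The cause of these shifts was not tested.

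Single members that turned direction did so when libraries were left out. Without both WT 3 and hetL1002P 3, Grb10 was at -0.013 in hetX753 against WT, Rian at 0.19 in hetL1002P against WT, and H19 at 0.086 and Plagl1 at -0.37 in hetX753 against hetL1002P. Without 1 library, hetX753 against WT ran from -0.12 to 0.17 for H19, -0.085 to 0.35 for Rian and -0.021 to 0.16 for Grb10. In hetL1002P against WT it ran from -0.068 to 0.50 for H19, -0.38 to 0.038 for Rian and -0.47 to 1.1 for Plagl1. In hetX753 against hetL1002P it ran from -0.49 to 0.088 for H19, -0.35 to 0.66 for Mest and -0.36 to 0.995 for Plagl1. Library totals alone moved the median gene by 0.12 in hetX753 and by 0.10 in hetL1002P against WT. Depth limits Plagl1, Dlk1 and Peg3, whose lowest libraries held 3, 14 and 13 counts.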

Other observations

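Genes listed for their part in imprints or DNA methylation were mostly above 0 in both carriers. None of 16 tested passed the threshold in any comparison (edgeR). The list is mixed, with methyltransferases, zinc finger repressors and Tet2, so the counts are not of genes that keep imprints alone. In hetX753 against WT, 14 of 16 were above 0 with a median of 0.31, and in hetL1002P against WT, 13 of 16 with a median of 0.30, where the medians of all genes were 0.00 and 0.01; the comparisons share the WT libraries. Zfp445, a zinc finger protein that guards imprints, averaged 27.9 ± 4.4 CPM in hetX753, 22.9 ± 5.30 CPM in hetL1002P and 15.7 ± 3.89 CPM in WT (SD, n = 3 each), with adjusted p = 0.12 in hetX753 and 0.579 in hetL1002P. The DNA methyltransferase gene Dnmt3a averaged 65.4 ± 1.89 CPM in hetX753, 62.6 ± 1.48 CPM in hetL1002P and 48.1 ± 10.5 CPM in WT, with adjusted p = 0.149 and 0.579.

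Neighbours of Igf2 and H19 lay mostly below 0, with 1 of 11 tested above 0 in hetX753 against WT (Cdkn1c, median of the list -0.40) and 0 of 11 in hetL1002P against WT (median -0.35). None passed the threshold. Tnni2, a fast fibre troponin gene, was at -0.60 (SE 0.20) in hetX753 and -0.44 (SE 0.19) in hetL1002P against WT, and Lsp1 at -0.62 (SE 0.21) and -0.46 (SE 0.21). Of these 11, 2 (Tnni2 and Tnnt3) are also muscle fibre markers and 4 are also in the list of maternally expressed genes. Genes of regenerating and embryonic muscle had medians of 0.04 in hetX753 and -0.03 in hetL1002P against WT over 13 tested, with none past the threshold. Among them embryonic myosin Myh3 was at -0.97 (SE 0.41, adjusted p = 0.576) in hetX753 against hetL1002P, and Ncam1 at 0.50 (SE 0.17, adjusted p = 0.579) in hetL1002P against WT.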
